A study of Mus musculus with 2 samples.

Results

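The homeobox genes Isl1, Isl2, Lhx3, Lhx4 and Mnx1 encode the transcription factors that textbooks use to define spinal motor neurons. They were chosen by name, 5 of the 21911 protein-coding genes in the GENCODE M21 annotation, and each was examined over its gene body plus 50 kb on each side. The data came from MN1, a mouse line of strain B6NCrl labelled as immortalized. The assay was DNase-seq, in which the nuclease DNase I cuts the accessible DNA of nuclei and the cut sites are sequenced. The labels give a single group with 2 biological replicates, 1 library each, and state no treatment, tissue of origin, age or sex. With 1 condition, the comparisons are between replicates and between the 5 genes and all other genes.

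Isl1, Isl2, Lhx3 and Lhx4 are LIM-homeodomain proteins, whose LIM domains bind the adaptor Ldb1 and so bring several DNA-binding subunits into 1 complex. In newborn motor neurons Isl1 and Lhx3 join through Ldb1 and switch on motor neuron genes, while Lhx3 with Ldb1 alone acts in neighbouring V2 interneurons. Mnx1, also called Hb9, has a homeodomain without LIM domains and holds motor neurons apart from the interneuron programme. Isl1 also acts in sensory and sympathetic neurons, in cardiac progenitors and in pancreatic islets, Mnx1 in islets, and Lhx3 and Lhx4 in the pituitary.

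Each library has a list of peaks, accessible elements of 150 bp, and a list of hotspots, broader stretches of raised cutting. Peaks carry a score from 1 to 150 with no stated normalization, so a score is given with its percentile among the peaks of its own list. Shared peaks are those with at least 1 bp in common with a peak from the other replicate, counted in the list of replicate 1. Replicate 1 had 170286 peaks and replicate 2 had 162691 on the main chromosomes. Read depth is unknown. A peak shows that DNA was accessible, and no transcript was measured. As a check of the labelled cells, both libraries had promoter peaks at 4 of 5 motor neuron effector genes (Chat, Slc18a3, Ache and Prph, with Slc5a7 in neither). The same held for 0 of 6 islet genes, 1 of 5 pituitary genes (Pitx1) and 3 of 4 cardiac progenitor genes (Nkx2-5, Tbx1 and Fgf10). Over all protein-coding genes the share was 58.9%, so these small counts say little about the identity of the cells.

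All 4 LIM genes had a peak within 1 kb of a transcript start in both libraries, and Mnx1 had none in either. Against the 58.9% of all protein-coding genes, 4 of 5 is not far from the background. The 5 windows held 85 peaks in replicate 1 and 84 in replicate 2, of which 60 and 58 were shared. Shared peaks numbered 22 around Lhx4, 17 around Lhx3, 10 around Mnx1, 6 around Isl1 and 5 around Isl2. With flanks of 20 kb these were 15, 11, 5, 6 and 3, so Mnx1 and Isl1 changed places. Since the windows differ in length, from 105.4 kb for Mnx1 to 153.7 kb for Lhx4, the order per 100 kb was Lhx3 with 15.7, Lhx4 with 14.3, Mnx1 with 9.48, Isl1 with 5.39 and Isl2 with 4.65. Over all genes the median was 7.76 shared peaks per 100 kb, with quartiles of 1.91 and 14.9. Lhx3 lay above the upper quartile, at the 77.2 percentile of genes, and Isl2 lowest of the 5 at the 36.1 percentile. The place of Lhx3 depends on the list counted. In the list of replicate 2 it had 15 shared peaks, and the other genes had the same counts as in replicate 1. Over its window of 108.1 kb, 15 peaks would put Lhx3 below Lhx4 and below that upper quartile. With 1 value per window there is no spread from which to say whether neighbours in this order differ.

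**Figure D1:**
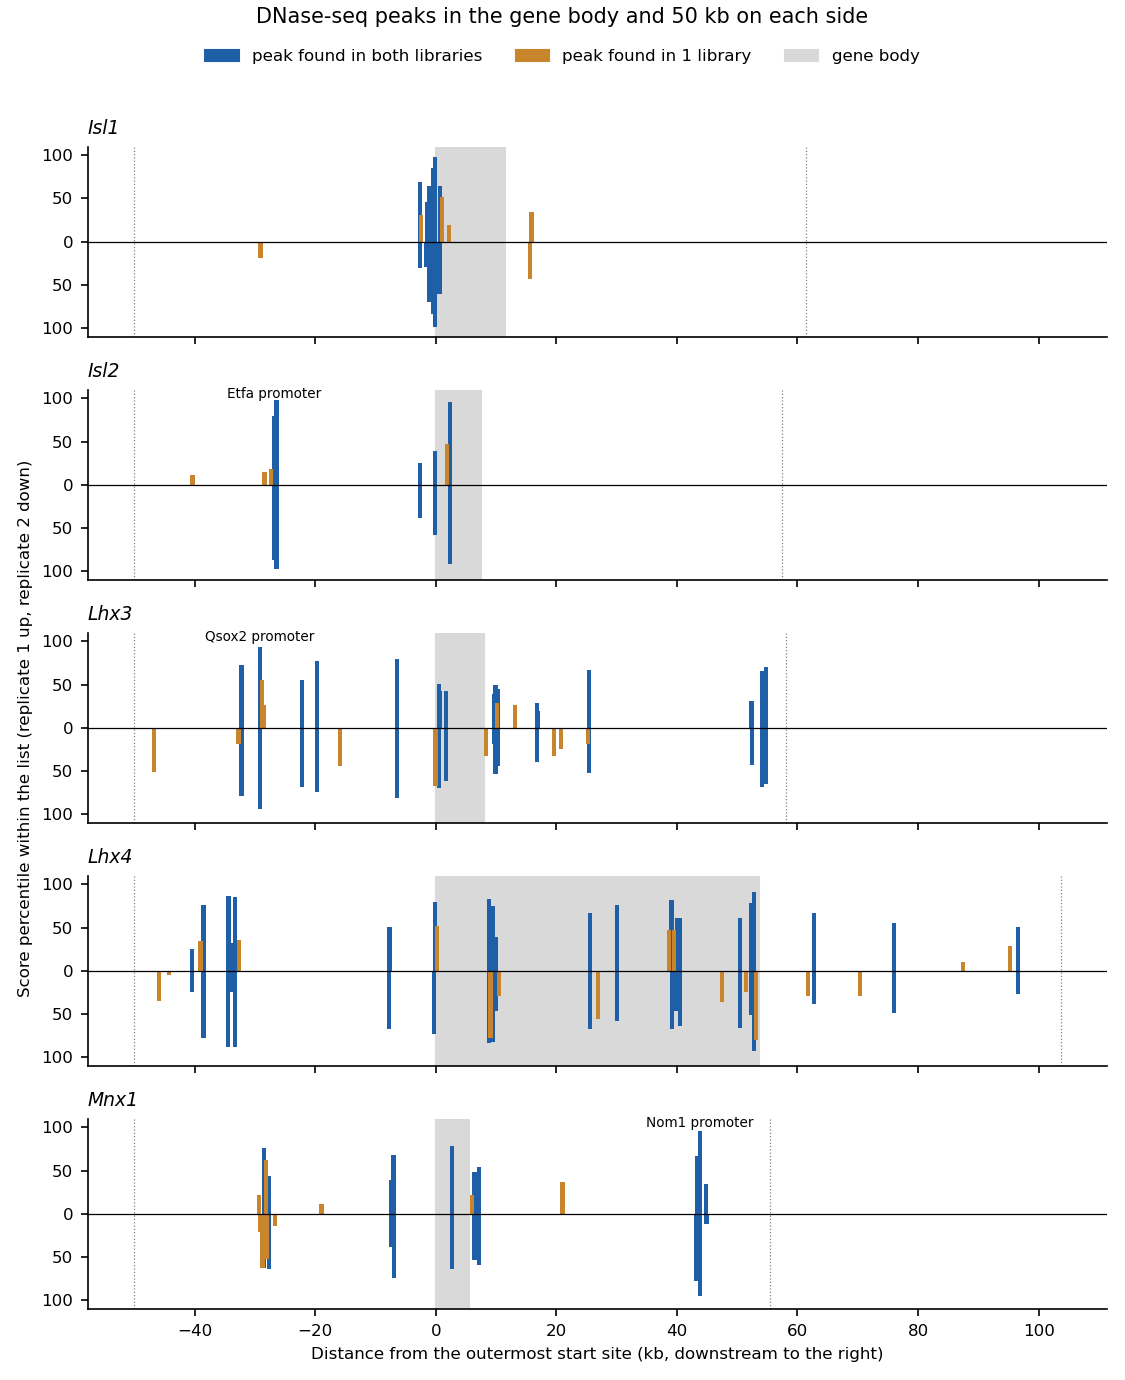
Peaks of replicate 1 (bars up) and replicate 2 (bars down) around the 5 genes, by distance from the outermost transcript start in kb, with bar length as score percentile. Blue bars are peaks found in both libraries, orange bars peaks found in 1 library, grey areas gene bodies and dotted lines the window ends. The shared peaks of Isl1 stand in 1 group at the start, whereas those of Lhx3 and Lhx4 spread through the window.

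Isl1 (ENSMUSG00000042258.13, chr13:116298281-116309689, minus strand, 11.4 kb) had the highest-scoring promoter peak of the 5 genes in both libraries. It lay 81 bp upstream of the outermost start, with a score of 139 in replicate 1 and 138 in replicate 2, the 98.1 percentile of each list. Among genes with a promoter peak, the best peak of Isl1 ranked at the 74.5 percentile (replicate 1) and the 75.5 percentile (replicate 2). The hotspot over this start was 1828 bp wide in replicate 1 and 1681 bp in replicate 2, wider than 97.5% and 97.3% of hotspots. The peak sequence is printed because it has the highest score of any own promoter peak of the 5 genes. It is chr13:116309696-116309845 on GRCm38.p6, minus strand, read from the RefSeq genome, with capitals marking a GATAA match, a CAGCTG E-box and the CCAAT boxes:

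Isl1 start: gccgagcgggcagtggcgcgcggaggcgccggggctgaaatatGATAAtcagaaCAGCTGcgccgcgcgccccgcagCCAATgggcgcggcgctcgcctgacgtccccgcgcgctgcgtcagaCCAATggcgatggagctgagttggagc

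This element held 22 CpG dinucleotides and 70.7% G and C. The 5 other shared peaks of Isl1 lay from 2621 bp upstream of the start to 699 bp downstream. Peaks centred 501 bp upstream, with scores of 98 in replicate 1 and 89 in replicate 2, and 699 bp downstream, in an intron, with 63 and 49, also counted as promoter peaks. Peaks at 1101 bp upstream scored 63 and 62, at 1501 bp upstream 46 and 26, and at 2621 bp upstream 70 and 27. The outermost of these differed most between the libraries, at percentiles of 69.5 and 30.9.

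No further shared peak lay in the Isl1 window. The next on the upstream side was 72.6 kb from the start and the next on the downstream side 94.4 kb. Of 672 genes that also had exactly 6 shared peaks in the window, all 6 lay within 3 kb of an own start in 7, or 1.04%, Isl1 among them. Of the 15327 genes with 5 or more shared peaks the same held for 17, or 0.111%. The 3 kb limit was chosen after the Isl1 peaks were seen, and with 5 kb the counts were 8 and 26. The 17 genes were Alms1, Basp1, Esf1, Fbp2, Gm15446, Gm42517, Hmgn5, Isl1, Lrif1, Man1a2, Mphosph8, Rhox2d, Riox2, Rps6ka6, Slitrk5, Zfp960 and Zmym2. All but Isl1 were named after their values were seen. Away from the start, each library had a weak peak of its own 15.9 kb and 15.7 kb downstream, scoring 38 in replicate 1 and 34 in replicate 2, too far apart to overlap. Replicate 1 had 3 more single-library peaks within 2.5 kb of a start, and replicate 2 had 2 more, 29.1 kb upstream and 54.9 kb downstream.

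Isl2 (ENSMUSG00000032318.12, chr9:55538672-55546180, plus strand, 7.5 kb), the close paralogue of Isl1, had the fewest shared peaks and had its strong peak at an inner start. It lay 98 bp upstream of the start of transcript Isl2-201, with scores of 130 in replicate 1 and 114 in replicate 2. These were the 95.8 and 92.0 percentiles. The outermost start, that of Isl2-205, lies 2476 bp further upstream and had a peak 82 bp upstream of it scoring 41 and 47. The ratio of observed to expected CpG within 500 bp was 0.68 at the inner start and 0.144 at the outer one. These were the 63.2 and 14.9 percentiles of all genes, each taken at its outermost start only. The peak at the inner start lies in an intron of the longer transcript, chr9:55540976-55541125 on GRCm38.p6, plus strand. It is shown for comparison with Isl1, with a CCAAT box and the SP/KLF string GGGCGG in capitals:

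Isl2 inner start: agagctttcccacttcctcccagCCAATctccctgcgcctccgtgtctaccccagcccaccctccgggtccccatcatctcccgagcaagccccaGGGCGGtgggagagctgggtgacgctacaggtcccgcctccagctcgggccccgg

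A noncoding gene on this locus, Gm17226, overlaps the region, and the lists do not assign a peak to a strand or a gene. Of the 3 other shared peaks of the Isl2 window, only 1 was free of a neighbour's promoter. It lay 2562 bp upstream of the outer start and scored 33 in replicate 1 and 31 in replicate 2. The remaining 2 lay 26.4 kb and 26.8 kb upstream at the promoter of Etfa, which encodes an electron transfer flavoprotein subunit, and scored 140 and 136, and 86 and 97. Thus the highest-scoring peak of this window belonged to the neighbour by position. Replicate 1 had 4 peaks that replicate 2 lacked, the highest scoring 47 and lying 578 bp upstream of the inner start, and replicate 2 had no peak of its own.

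Lhx3 (ENSMUSG00000026934.15, chr2:26200212-26208289, minus strand, 8.1 kb), the LIM factor that joins Isl1 in motor neurons, had the weakest promoter peaks of the 4 LIM genes. Its best promoter peak scored 49 in replicate 1 and 61 in replicate 2, at the 50.2 and 69.4 percentiles. Among genes with a promoter peak this ranked at the 7.15 and 11.1 percentiles. The outer start, of Lhx3-202, had shared peaks 499 bp and 659 bp downstream of it, both of which overlapped 1 peak of replicate 2. A peak 41 bp upstream of that start scored 58 in replicate 2 and was missing from replicate 1. The inner start, of Lhx3-201, lies 1714 bp downstream, had the higher CpG ratio (0.591 against 0.295) and a peak centred 25 bp from it, with scores of 43 and 51. The bases of this peak upstream of the transcript are chr2:26206576-26206625 on GRCm38.p6, minus strand. They are shown because they hold the SP/KLF string GGGCGG on the other strand, in capitals:

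Lhx3 inner start: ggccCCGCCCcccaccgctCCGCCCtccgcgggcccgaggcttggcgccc

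These 50 bases held 88.0% G and C. Antisense noncoding gene Gm27196 overlaps the outer start, and its part in the signal there cannot be told apart.

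The accessible elements of the Lhx3 window with the highest percentiles lay away from the gene. The highest, with scores of 122 in replicate 1 and 123 in replicate 2, lay at the promoter of the neighbour Qsox2, a sulfhydryl oxidase gene, 29.2 kb upstream. Next came a peak in a Qsox2 intron 6.46 kb upstream of Lhx3, chr2:26214676-26214825, with scores of 86 and 82. It held both E-box strings, CAGCTG and CAGATG. An intergenic peak 32.2 kb upstream, with scores of 75 and 78, held a CATTAG match. A further peak in a Qsox2 intron, 19.7 kb upstream, scored 82 and 69 and held the only CTCF match among the 60 shared peaks. Another Qsox2 intron peak, 22.1 kb upstream, scored 53 and 59. Downstream of the gene, 3 shared peaks lay 9.62 to 10.3 kb from the outer start, with scores between 41 and 48 in replicate 1 and between 21 and 42 in replicate 2. The rest of the downstream side held 2 overlapping weak peaks in the noncoding gene Gm13553, 1 peak at 25.4 kb and 3 peaks 52.4 to 54.8 kb away. Single-library peaks numbered 4 in replicate 1 and 8 in replicate 2.

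Lhx4 (ENSMUSG00000026468.14, chr1:155698031-155751684, minus strand, 53.7 kb), the paralogue of Lhx3 that shares its work in motor neurons and pituitary, had peaks at both of its starts. The inner start, of Lhx4-201, lies 9657 bp into the longer gene model and had shared peaks 763 bp and 103 bp upstream and 277 bp downstream. Their scores were 92, 79 and 41 in replicate 1 and 88, 85 and 36 in replicate 2. A hotspot of 1477 bp in replicate 1 and 1497 bp in replicate 2 covered this start. Replicate 2 alone also had peaks 563 bp upstream and 797 bp downstream of it, with scores of 74 and 26. The outer start, of Lhx4-202, had a peak 186 bp upstream, with scores of 87 and 67, under a hotspot of 757 and 749 bp. The starts differ in sequence, with a CpG ratio of 0.716 at the inner and 0.0883 at the outer start. Among the outermost starts of all genes these were the 67.6 and 6.70 percentiles. A peak of replicate 1 alone lay nearer to the outer start, 174 bp downstream, and scored 50. The shared peaks nearest to the starts are printed to show this contrast, both on the minus strand of GRCm38.p6. The inner one is chr1:155742056-155742205, with the SP/KLF string in capitals, and the outer one is chr1:155751796-155751945, with no match to any of the strings searched:

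Lhx4 inner start: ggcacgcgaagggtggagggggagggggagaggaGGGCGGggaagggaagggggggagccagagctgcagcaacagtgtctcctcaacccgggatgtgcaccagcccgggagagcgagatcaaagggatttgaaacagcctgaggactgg

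Lhx4 outer start: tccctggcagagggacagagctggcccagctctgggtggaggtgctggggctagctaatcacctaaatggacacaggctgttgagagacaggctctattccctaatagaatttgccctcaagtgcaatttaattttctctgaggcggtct

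The inner element held 6 CpG dinucleotides and the outer one 1. By best promoter peak, Lhx4 stood at the 82.6 percentile of all peaks (replicate 1) and the 83.5 percentile (replicate 2). Among genes with a promoter peak, this was the 18.8 and the 18.0 percentile.

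**Figure D2:**
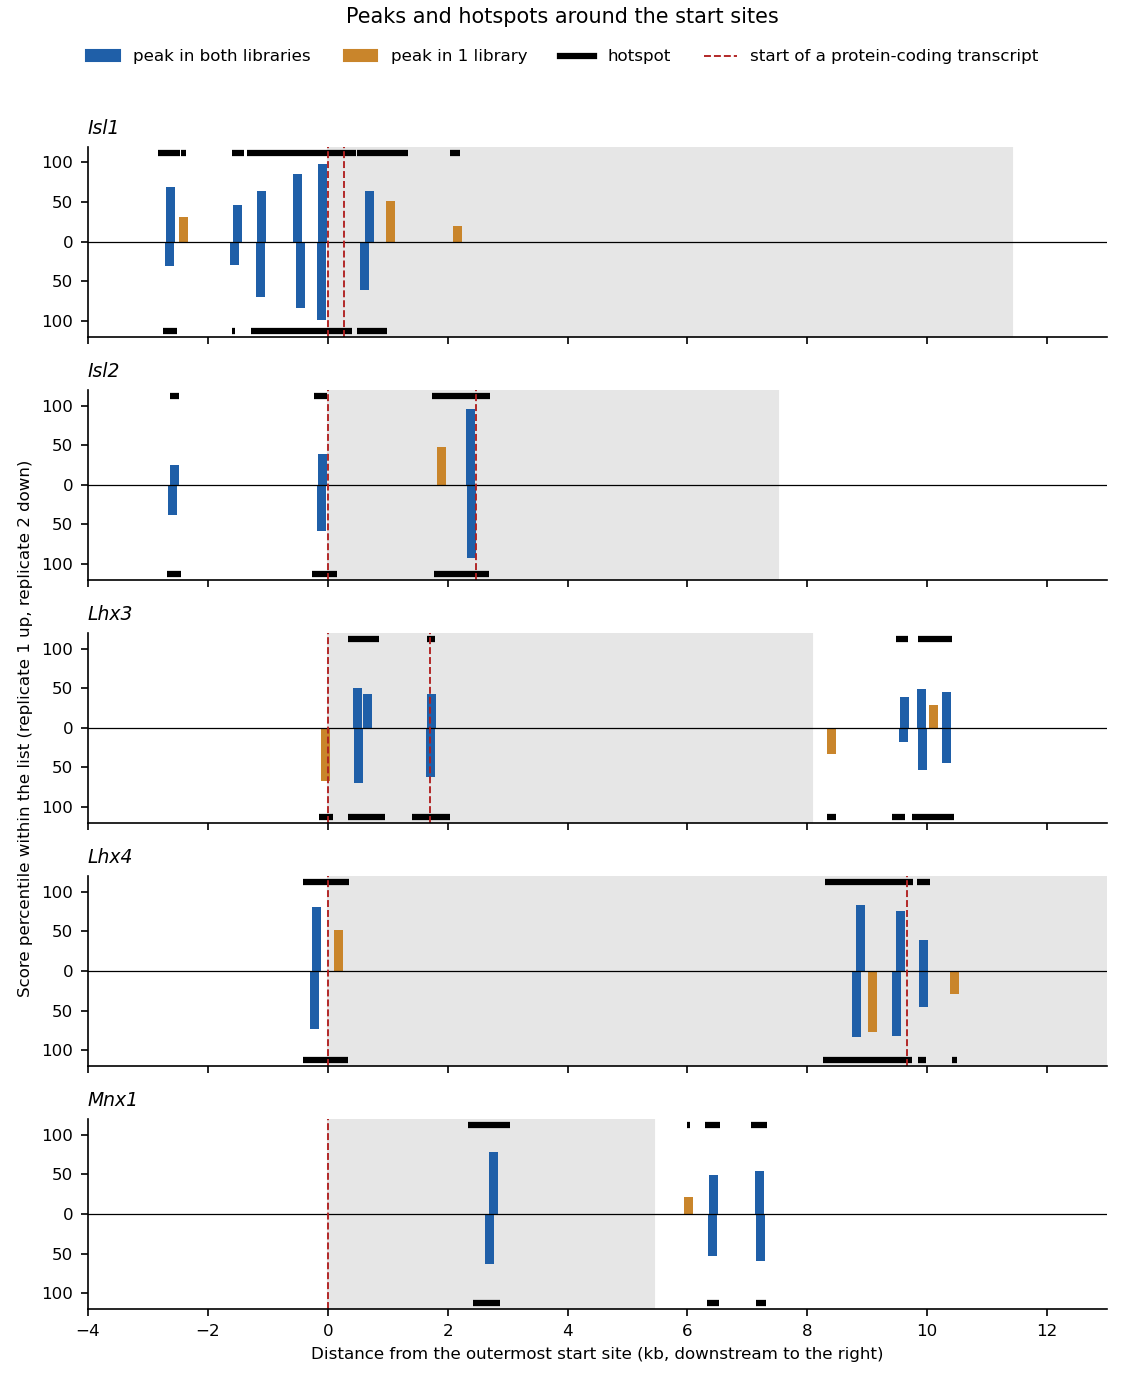
Peaks and hotspots within 4 kb upstream and 13 kb downstream of the outermost start of each gene, replicate 1 above and replicate 2 below the line, with bar height as score percentile. Dashed lines mark starts of protein-coding transcripts, black bars hotspots and grey areas the gene body. Isl2, Lhx3 and Lhx4 have peaks within 1 kb of an outer and of an inner start, and Mnx1 has its nearest peak 2.76 kb inside the gene.

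The Lhx4 peak with the highest percentile lay at the other end of the gene. It fell in the 3′ UTR, chr1:155698816-155698965, 52.8 kb downstream of the outer start, with scores of 115 in replicate 1 and 116 in replicate 2 and a mean percentile of 92.1. A second peak in this UTR, 52.3 kb from the start, scored 85 and 40, and a further one at 50.4 kb scored 60 and 56. Replicate 2 had another peak in the UTR that replicate 1 lacked, with a score of 79, the highest of any single-library peak in the 5 windows. Introns of Lhx4 held 6 shared peaks outside the promoters, with scores between 58 and 91 in replicate 1 and between 30 and 58 in replicate 2. One of them, 40.3 kb from the outer start, held both homeodomain strings, TAATTA and CATTAG, and a GATAA match.

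Upstream of Lhx4 the shared peaks lay mainly inside the neighbour Qsox1, a sulfhydryl oxidase gene related to Qsox2. Its introns held 5 of them, 33.3 to 40.5 kb upstream of Lhx4, and the 2 strongest scored 98 and 102 in replicate 1 and 102 and 101 in replicate 2. Both of those lay under 1 hotspot of 1560 bp in replicate 1. A single shared peak, 7.69 kb upstream with scores of 49 and 58, lay between Qsox1 and Lhx4. On the downstream side, Acbd6, an acyl-CoA binding protein gene, held 3 shared peaks, 2 in introns and 1 in a UTR. Acbd6 and Qsox1 have starts in this window, but no shared peak of the window was at a promoter of either. Replicate 2 alone had a peak at a Qsox1 promoter in the window, with a score of 13. Counted over all of their starts, both genes had promoter peaks in both libraries. Single-library peaks numbered 7 in replicate 1 and 10 in replicate 2.

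Mnx1 (ENSMUSG00000001566.9, chr5:29473034-29478470, minus strand, 5.4 kb) had no called element at its single annotated start. Neither library had a peak or a hotspot within 1 kb of it. The nearest hotspot was 2332 bp away in replicate 1 and 2418 bp in replicate 2. Its start is rich in CpG, with an observed to expected ratio of 0.796, the 79.0 percentile of genes, in the eighth of 10 equal bins. Of the 2192 genes in that bin, 88.1% had a promoter peak in both libraries, and 10.4% had a promoter hotspot in neither, Mnx1 among these 227. The promoter is shown because it holds CCAAT, marked above for Isl1 and Isl2, and GGGCGG, marked above for Isl2 and the inner starts of Lhx3 and Lhx4. Neither string was marked in the printed sequences of every LIM gene. It is the part of the RefSeq promoter before the transcript, chr5:29478471-29478720 on GRCm38.p6, minus strand, with CCAAT boxes and the SP/KLF string in capitals:

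Mnx1 promoter, no peak: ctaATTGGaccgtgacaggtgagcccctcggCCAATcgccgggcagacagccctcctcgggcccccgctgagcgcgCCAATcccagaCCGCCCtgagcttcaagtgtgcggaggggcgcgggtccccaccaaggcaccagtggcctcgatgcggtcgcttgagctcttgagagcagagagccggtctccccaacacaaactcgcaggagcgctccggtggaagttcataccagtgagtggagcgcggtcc

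These 250 bases held 21 CpG dinucleotides, 3 CCAAT boxes and 1 SP/KLF string. CCAAT was present in 37.4% of 32851 RefSeq promoters of 300 bases and GGGCGG in 35.7%. The peak of Mnx1 nearest to the start lay 2760 bp downstream in an intron, chr5:29475636-29475785, with scores of 84 in replicate 1 and 53 in replicate 2. Its sequence on the minus strand is printed as the nearest accessible element to that promoter, and it held 1 CpG and none of the strings searched:

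Mnx1 intron peak: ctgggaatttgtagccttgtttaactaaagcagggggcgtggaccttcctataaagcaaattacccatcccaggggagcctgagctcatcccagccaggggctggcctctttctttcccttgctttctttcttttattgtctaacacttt

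The remaining Mnx1 peaks lay outside the gene. Shared peaks 6.44 kb and 7.20 kb downstream of the start, just past the end of the gene, scored 48 and 42, and 52 and 48. Upstream, a peak 7.0 kb away scored 68 and 69 and one 7.4 kb away scored 41 and 31. A broader accessible stretch lay 27.6 to 28.5 kb upstream, where replicate 1 had 1 hotspot of 1539 bp and the shared peaks scored 80 and 44 in replicate 1 and 51 and 53 in replicate 2. All 5 single-library peaks of replicate 2 in the window also lay there, between 26.7 and 29.2 kb upstream. The highest peak of the window in both libraries, scoring 131 and 124, lay at a promoter of Nom1, a nucleolar protein gene, 43.8 kb downstream. A second peak at Nom1, 43.3 kb downstream, scored 66 and 75. A weak peak at 44.8 kb scored 38 and 18. Single-library peaks numbered 6 in replicate 1 and 5 in replicate 2.

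Across the 5 windows, 12 of the 60 shared peaks lay at an own promoter and 5 at the promoter of a neighbour. Introns of protein-coding genes held 17, introns of a noncoding gene 2, UTRs 4 and intergenic sequence 20. The share outside all promoters was 71.7% in the list of replicate 1 and 72.4% in that of replicate 2, against 72.9% of all shared peaks in each list. Within 3 kb of an own start lay 6 of 6 shared peaks of Isl1, 3 of 5 of Isl2, 3 of 17 of Lhx3, 4 of 22 of Lhx4 and 1 of 10 of Mnx1. At own promoters, within 1 kb of a start, lay 3 shared peaks of Isl1, 2 of Isl2, 3 of Lhx3, 4 of Lhx4 and 0 of Mnx1.

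The libraries matched each other in these windows about as well as elsewhere. Of the window peaks, 70.6% in replicate 1 (exact 95% binomial interval 59.7% to 80.0%) and 69.0% in replicate 2 (58.0% to 78.7%) were shared, against 67.1% and 70.2% of the whole lists. The intervals treat peaks as independent and cover counting error only. Peak numbers had a ratio of 1.01 between replicate 1 and replicate 2 in the windows and 1.05 in the whole lists. Shared peaks differed by a median of 6.82 percentile points between the libraries, against 6.60 over all shared peaks. Shared peaks of the windows had a median percentile of 65.0 in replicate 1 and 63.7 in replicate 2, against 65.0 and 62.9 over the whole lists. Peaks found in 1 library stood higher in the windows, with medians of 28.8 and 30.8 against 21.4 and 22.6. Of the 25 single-library peaks of replicate 1, 10 lay in a hotspot of replicate 2 (40.0%, against 15.96% over the whole list). Of the 26 of replicate 2, 4 lay in a hotspot of replicate 1 (15.4% against 23.7%).

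**Figure D3:**
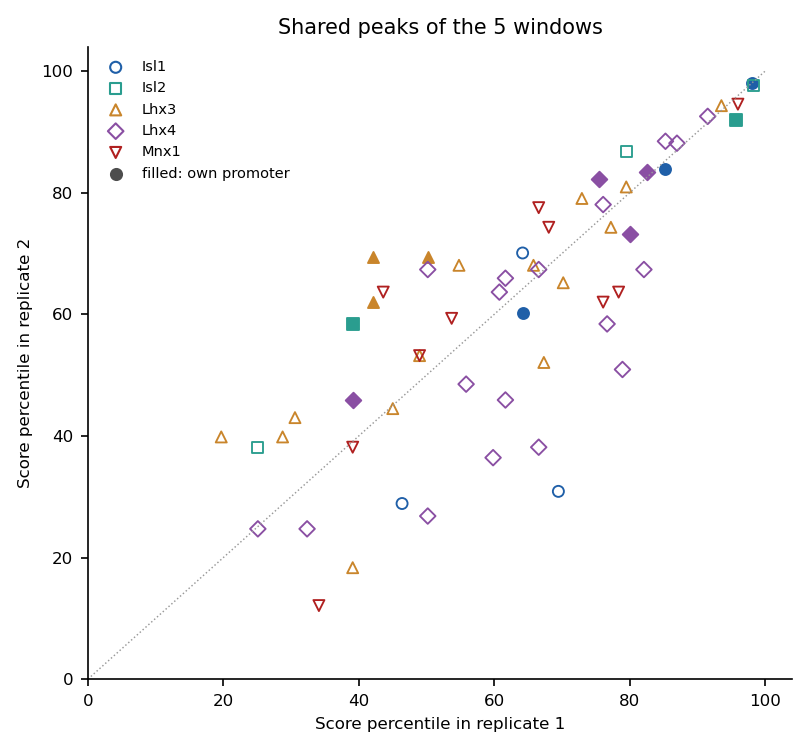
Score percentile of the 60 shared peaks in replicate 1 (horizontal axis) and replicate 2 (vertical axis), by gene, with filled symbols for peaks at the gene's own promoter and the dotted line for equal percentiles. The strongest Isl1 peak sits at 98.1 on both axes. The 3 Lhx3 promoter peaks lie above the line, but those 499 bp and 659 bp downstream of the outer start are paired with the same peak of replicate 2.

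Short DNA strings were matched on both strands in the 60 shared peaks and, as background, in all 114222 shared peaks of replicate 1. GATAA, the string of GATA factors, was in 16 peaks (26.7% against 15.2%), of which 14 were among the 43 peaks outside promoters (all such peaks, 17.7%). The E-box CAGATG was in 13 (21.7% against 17.1%) and CAGCTG in 9 (15.0% against 14.3%). Homeodomain strings were rare, with TAATTA in 2 (3.33% against 4.04%) and CATTAG in 4 (6.67% against 5.86%). AP-1 matches, TGANTCA, were in 3 (5.0% against 12.0%). SP/KLF matches, GGGCGG, were in 10 (16.7% against 14.2%), CCAAT in 9 (15.0% against 19.02%), AGGTCA of nuclear receptors in 6 (10% against 8.92%) and CCGGAAG of ETS factors in 3 (5.0% against 2.97%). CTCF was matched in 1 (1.67% against 4.84%). The CRE string TGACGTCA and the consensus strings of NFI and RFX were in none, and were in 0.777%, 0.197% and 0.293% of all shared peaks. The shares have no test. With 60 peaks, each peak moves a share by 1.67 percentage points.

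Related genes were counted in the same way from 4 lists. Of 8 other LIM homeobox genes, 4 had promoter peaks in both replicates (Lhx1, Lhx2, Lhx6 and Lhx9), Lmx1b had a weak one in replicate 2 only, and Lhx5, Lhx8 and Lmx1a had none. All 10 LIM domain cofactor genes had one, including the adaptor genes Ldb1 and Ldb2 and the competitors Lmo1, Lmo2 and Lmo3. Of 11 reported factors that act before or beside the 5 genes in the ventral cord, 3 had one (Pax6, Neurog2 and Gata3) and 8 had none. Those without one included the motor neuron progenitor genes Olig2, Nkx6-1 and Nkx6-2, as well as Nkx2-2 and Irx3. Of 7 reported factors that act beside Isl1 in sensory and sympathetic neurons, 7 had one (Pou4f1, Pou4f2, Phox2a, Hand2 and Gata2 among them). The last 2 lists are reported in part, so their shares are not those of the full lists. These shares stand against 58.9% over all genes, and no test was made.

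Median shared peaks per 100 kb were 15.6 for the reported sensory and sympathetic factors, 10.4 for the cofactors, 6.48 for the other LIM homeobox genes and 3.90 for the reported ventral cord factors. For the 5 genes the median was 9.48. Among these 4 lists, without the effector, islet, pituitary and cardiac genes, the most alike by promoter state and shared peaks per 100 kb were Pax6 (5.45) and Ssbp2 (5.54) for Isl1, and Rlim (4.03) and Pax6 for Isl2. Tlx3 (15.6) and Ldb1 (18.5) were nearest to Lhx3, and Tlx3 and Ssbp3 (12.1) to Lhx4. Among genes of the 4 lists without a promoter peak, Nkx6-2 (9.67) and Irx3 (6.76) were nearest to Mnx1. Likeness here is 1 ratio over 2 libraries of 1 cell line.

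**Figure D4:**
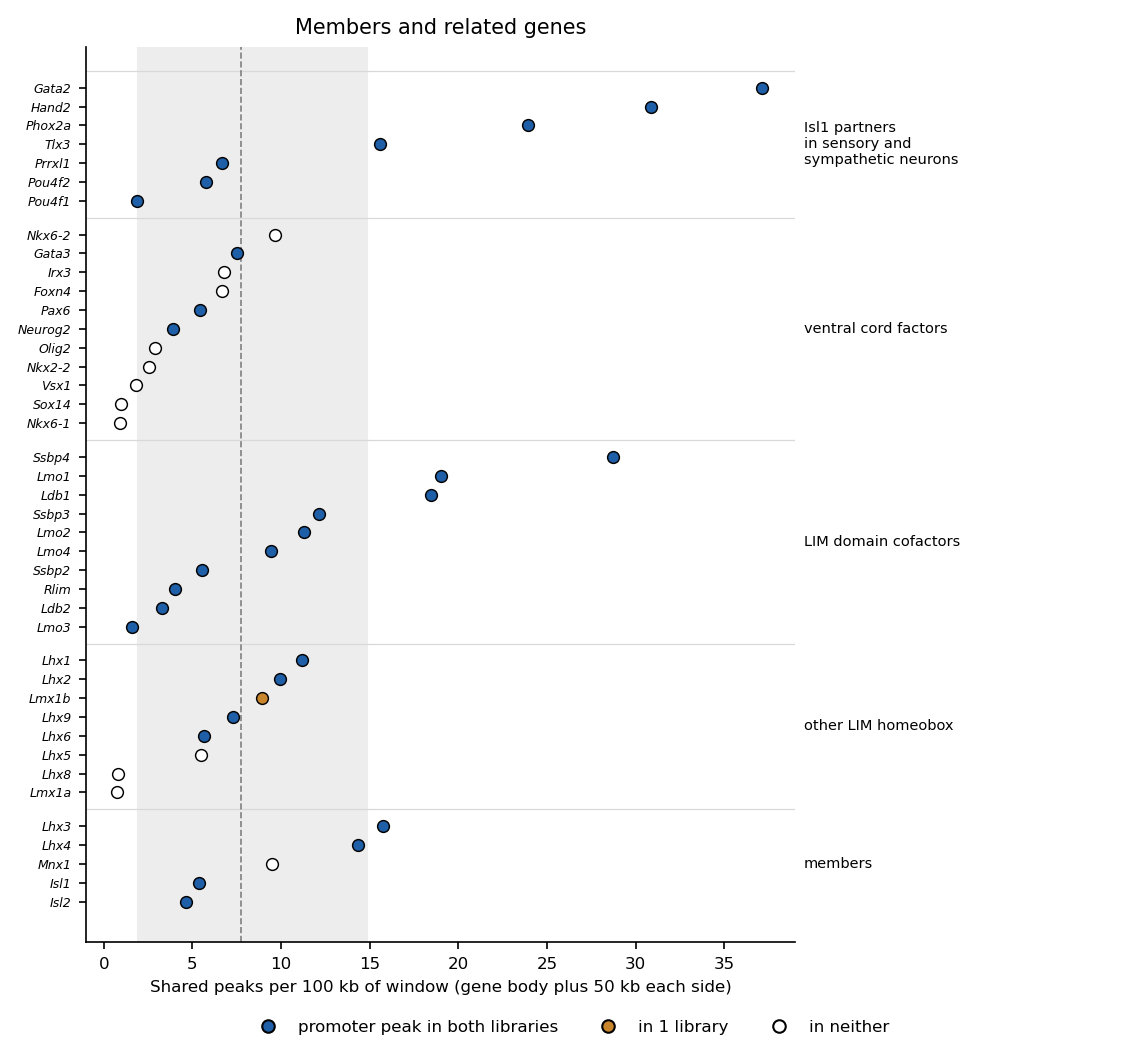
Shared peaks per 100 kb of window for the 5 genes and 4 lists of related genes, with blue points for a promoter peak in both libraries, orange for 1 library and white for neither. The dashed line is the median of all protein-coding genes (7.76) and the grey band their quartiles. Mnx1 is the only white point among the 5 genes, and 8 of 11 ventral cord factors are white.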

How the data were processed

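DNase-seq libraries of 2 biological replicates of MN1 were analysed. Per the notes deposited with the files, peaks and hotspots were derived from each library's filtered alignments on mm10. Deposited peaks carry a score without stated normalization, and deposited hotspots a q-value as −log10 capped at 100. Not given in the sources used here are the aligner, caller and threshold. Repeated entries were removed (43 and 20). Peaks on the 19 autosomes, X and Y were placed by their centre, with genes from GENCODE M21 and sequence from RefSeq GRCm38.p6 (all 5 genes matched, with 6 promoters). CpG ratios used 500 bp on each side of a start. Counting was tested on simulated intervals (Python 3.11.15, numpy 2.4.6, pandas 2.3.3, scipy 1.17.1). No test between conditions was possible.

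The 5 genes and the lists were chosen with earlier results of these data known. Named were all 5 genes, their promoter peaks, the 3 shared peaks with the highest mean percentile and the nearest peak per window, neighbours with a start in the window, up to 5 genes with and 5 without a promoter peak per list in list order, and the 2 most alike genes. Other peaks were named to account for every element, and CATTAG and CCAAT were added later, CCAAT after sequences were seen. Some genes of the lists are not reported here. Drgx was found under its annotated symbol Prrxl1. Alternatives changed the promoter width, starts, flank, score limit, overlap, list type, replicate or window.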

Additional observations from a re-analysis of the deposited data

How the results depend on the processing

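A promoter peak in both libraries was found for 4 of the 5 genes in the main count and in all 8 alternatives (narrower and wider promoters, other sets of starts, hotspots, peaks at or above the median score of each list, and each library alone). Each library alone had to give 4, since the LIM genes had a promoter peak in both and Mnx1 in neither. At the median score, Lhx3 was kept in replicate 1 by a tie, with a best promoter score of 49 and a list median of 49. The total of 60 shared peaks moved to 105 with 100 kb flanks, to 36 with only peaks at or above the median score, and to 38 without the Lhx4 window. It stayed within 1.5 times of 60 in the other settings, with 40 for 20 kb flanks and 54 for hotspots. The share of window peaks found in both libraries lay between 63.5% and 78.3%, the share outside promoters between 63.9% and 78.1%, and the ratio of peak numbers between 0.932 and 1.02. Leaving out replicate 1 gave 84 peaks and leaving out replicate 2 gave 85, since every peak of 1 list then counts. Leaving out the promoter peaks of neighbours, an alternative chosen after seeing the data, left 55 peaks, and 3 of 5 around Isl2. The counts of single windows moved by over 1.5 times in 15 comparisons and by 1.5 times or less, or not at all, in 25. With 100 kb flanks they were 11 for Isl1, 8 for Isl2, 39 for Lhx3, 28 for Lhx4 and 19 for Mnx1, and with peaks at or above the median score 4, 3, 9, 14 and 6. Leaving out replicate 2 gave 10 peaks for Isl1, 9 for Isl2 and 16 for Mnx1. No paired analysis was possible because there is only 1 group of 2 libraries. Depth is unknown, so a missing peak, such as at the Mnx1 start, means only that none was called. Replicates come from 1 cell line.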
